A study of Homo sapiens with 4 samples.

Results

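The epithelial-mesenchymal state of ES2 cells was examined through 10 genes, chosen by symbol from the 23228 gene symbols counted. They were the filament genes VIM, KRT8 and KRT18, the cadherins CDH1 and CDH2, and the transcription factors ZEB1, ZEB2, SNAI1, SNAI2 and TWIST1. Of these, 9 had enough reads to be tested among the 12706 genes tested, and CDH1 did not. ES2 is an established human ovarian cancer cell line. EC359, an inhibitor of the leukemia inhibitory factor receptor LIFR, was given at 10 nM for 12 h, and control cells received the vehicle, 0.1% DMSO, for the same time. All cells grew in RPMI with serum, and polyadenylated RNA was sequenced from 2 libraries per treatment. The study profiled this RNA to ask which transcripts respond to LIFR inhibition. ES2 is 1 cell line at 1 dose and 1 time, so the groups say nothing of other lines or later times.

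Epithelial cells hold to each other through E-cadherin, the product of CDH1, and carry keratin filaments. Mesenchymal cells express N-cadherin, the product of CDH2, and vimentin, the product of VIM. The change from the former to the latter, the epithelial-mesenchymal transition (EMT), is driven by the ZEB, SNAIL and TWIST factors, many of which repress CDH1 by binding E-box sequences in its promoter. ZEB1 and ZEB2 are in turn held down by microRNAs of the miR-200 family, and they repress the genes of those microRNAs. In ovarian cancer this axis is known for its part in invasion and in the spread of ascites cells.

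The seeds that link ZEB1 and ZEB2 to the miR-200 family are shown because they define the regulatory loop these genes belong to. The mature microRNAs, from RefSeq on GRCh38.p14, are written 5′ to 3′ with the seed, bases 2 to 8, in capitals. They fall into groups by shared seed, with miR-141 and miR-200a in the first, miR-200b, miR-200c and miR-429 in the next, and miR-205, from another family, alone.
hsa-miR-141-3p: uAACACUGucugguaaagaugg
hsa-miR-200a-3p: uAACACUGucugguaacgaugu
hsa-miR-200b-3p: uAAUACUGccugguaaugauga
hsa-miR-200c-3p: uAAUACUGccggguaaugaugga
hsa-miR-429: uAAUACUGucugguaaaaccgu
hsa-miR-205-5p: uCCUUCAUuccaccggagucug

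The exact matches to these seeds were counted on the sense strand of the 3′ untranslated part of each ZEB transcript, as annotated by GENCODE on GRCh37. In 2543 bases of ZEB1 there were 6 matches to CAGTATT, 3 to CAGTGTT and 1 to ATGAAGG. In 5373 bases of ZEB2 there were 5, 4 and 0. A site of each miR-200 kind, the one nearest to the stop codon, is given below with the match in capitals. A match describes the sequence only, since mature microRNAs were not measured.
ZEB1, chr10:31816551-31816575, plus strand: tttatcttatCAGTATTatcactct
ZEB1, chr10:31816964-31816988, plus strand: tcatcagaatCAGTGTTtgtgattg
ZEB2, chr2:145146612-145146636, minus strand: taccatacatCAGTATTtttattat
ZEB2, chr2:145146796-145146820, minus strand: aaattttgtaCAGTGTTaaggccta

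Promoters are shown for VIM and ZEB1, the members that were lower with EC359 at an unadjusted p under 0.05. RefSeq windows of 300 bases on GRCh38.p14, from 250 bases before to 50 after a transcription start, were matched for VIM, CDH2, ZEB1, ZEB2 and KRT8, 5 of the 10 members. They were searched on both strands for the E-box CACCTG, which reads as CAGGTG on the opposite strand. This is the form that ZEB and SNAIL factors bind, and it was present in 20.6% of all 35116 windows. The windows of VIM, CDH2, ZEB2 and KRT8 held 0. The only KRT8 window, chr12:52926420-52926719, is that of an upstream alternative start, so the main KRT8 promoter was not searched. ZEB1 had 7 windows, of which 5 held 0, 1 held 1 and 1 held 3. The window with 3, chosen for that number, is printed below. Of its 3 E-boxes, 2 lie in the 250 bases before the start, which are printed on the plus strand with the E-boxes in capitals.
VIM, chr10:17227991-17228240: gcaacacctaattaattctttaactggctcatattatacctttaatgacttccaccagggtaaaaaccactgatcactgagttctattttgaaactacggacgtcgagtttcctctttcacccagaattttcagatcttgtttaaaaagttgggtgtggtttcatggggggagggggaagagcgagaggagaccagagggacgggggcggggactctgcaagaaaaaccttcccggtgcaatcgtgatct
ZEB1, chr10:31318966-31319215: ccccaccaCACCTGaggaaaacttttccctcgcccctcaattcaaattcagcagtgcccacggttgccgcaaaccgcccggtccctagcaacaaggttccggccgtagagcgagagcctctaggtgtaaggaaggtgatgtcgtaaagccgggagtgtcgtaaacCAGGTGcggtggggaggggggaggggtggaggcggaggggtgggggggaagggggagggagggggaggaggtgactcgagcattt

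Depth moved with treatment. The libraries held 25603886 and 25572494 gene counts with vehicle and 31707553 and 29914788 with EC359, so values are compared after scaling. Normalized counts are counts scaled with TMM factors to the mean library size, and EC359 was tested against vehicle by quasi-likelihood in edgeR, with p adjusted after Benjamini and Hochberg over all 12706 genes. A gene was called at an adjusted p under 0.01. The biological coefficient of variation was 3.5%, and over all genes the median absolute log2 fold change was 0.091. The study describes the samples as biologically independent, while the labels name no separate cultures, so the p-values measure the spread between these libraries. In RNA from whole cultures, fewer cells of a kind and less RNA per cell cannot be told apart.

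In both treatments the members showed a mesenchymal profile with simple-epithelial keratins beside it. In a list of 30 mesenchymal markers described below, 6 had fewer than 30 raw counts in every library, among them ACTA2, TAGLN and POSTN. Levels between genes are compared as CPM (counts scaled to library size) per kilobase of transcript. VIM stood at the top with 2228 to 2595 over the 4 libraries, followed by KRT18 with 176 to 195. CDH2 (36.3 to 37.7), SNAI2 (29.8 to 31.3) and ZEB1 (20.6 to 23.1) came next. They were followed by KRT8 (12.3 to 13.5), TWIST1 (11.1 to 11.8) and ZEB2 (7.38 to 7.87). SNAI1 had 0.762 to 1.01, and CDH1 was last with 0 to 0.00688. Each gene was above the next in every library. This order covers the reads that could be counted, and reads with several alignments had been left out. Of the 50-base windows of the exons, 41.1% of KRT8 and 35% of KRT18 occur more than once in GRCh37, against 0 for VIM and 0.091% for ZEB1. Per kilobase of unique sequence, KRT8 (20.8 to 23) and ZEB1 (20.7 to 23.1) overlapped, and their order cannot be set.

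**Figure D1:**
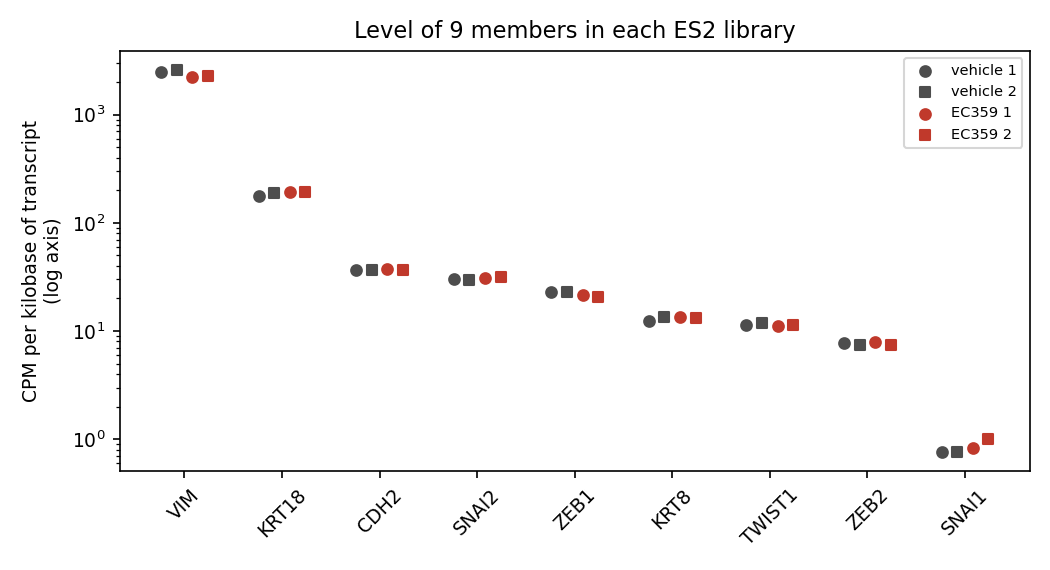
Level of each member except CDH1 in the 4 libraries, as CPM per kilobase of transcript on a log axis. Grey points are vehicle and red points EC359, circles are replicate 1 and squares replicate 2. VIM lies between 2228 and 2595 and SNAI1 between 0.762 and 1.01. CDH1, with 1 read in all, is not drawn.

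The label of an ovarian cancer line was compared with defining markers. MUC16, EMX2 and FOLR1 were at 0 in all 4 libraries, and MSLN and NAPSA had at most 2 reads in any library. PAX8 had 24 to 41 reads and WT1 had 76 to 119, while ARID1A (2481 to 3258) and LGR5 (460 to 718) were present. For epithelial identity, CLDN3 and GRHL2 were at 0 and EPCAM had at most 2 reads. CDH1, CLDN4, CLDN7, ESRP1 and KRT19 had at most 23 reads in any library. By contrast, KRT7 had 6679 to 8979 reads, KRT18 had 6304 to 8773 and KRT8 had 556 to 770. The immune marker CD3E and the liver gene ALB were at 0, and PTPRC had 1 read in all. The immune gene CD68, the fibroblast gene COL1A1 and the endothelial gene CDH5 were present, with counts given at the end. The transcript data thus carry few of the usual carcinoma markers beside the keratins KRT7, KRT18 and KRT8. The cells are described here by their measured genes.

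Against this profile, EC359 changed no member beyond the threshold. Of the 9 tested members, 0 were called, where 1.09% of all genes tested were called in either direction. At an unadjusted p under 0.05, VIM and ZEB1 were lower and KRT18 was higher, 3 of 9 against 21.6% of all genes. The EC359 libraries lay entirely above or below the vehicle libraries for 7 of 9 members, against 51.5% of all genes. The median log2 fold change of the 9 was 0.035, beside 0.0029 for all genes, with 6 higher and 3 lower. DESeq2, edgeR's exact test and limma voom each called 1 member, VIM, as lower.

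**Figure D2:**
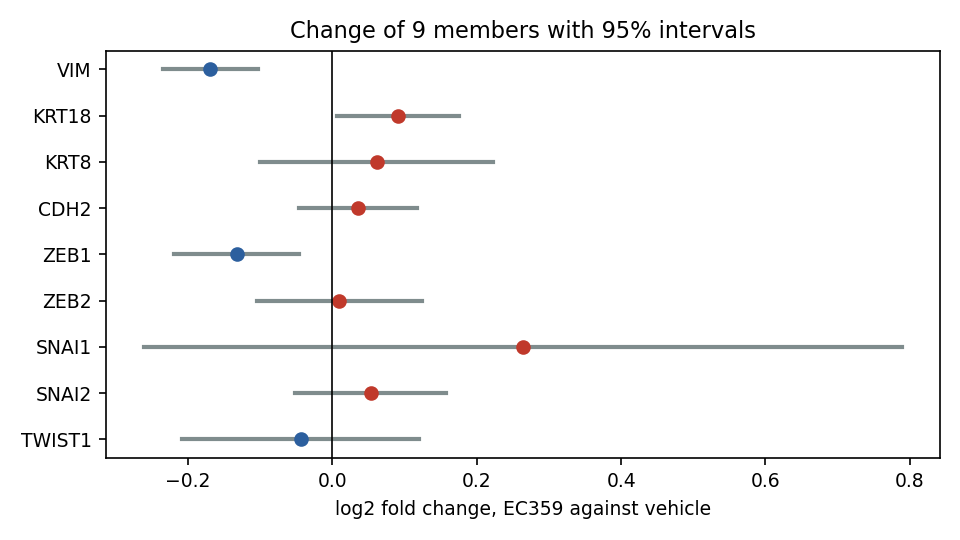
Log2 fold change of the 9 tested members, EC359 against vehicle (points, blue where negative and red where positive), with 95% intervals from edgeR's quasi-likelihood fit (grey lines). The intervals of VIM and ZEB1 lie below 0 and that of KRT18 above it. SNAI1, the member with the fewest reads among those tested, has the widest interval, from -0.26 to 0.79.

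VIM encodes vimentin, the intermediate filament of mesenchymal cells, and lies on chromosome 10 of GRCh37 from 17270240 to 17279592 on the plus strand. It took 0.483% to 0.554% of all gene counts. Normalized counts were 150994 and 157710 with vehicle, and 135415 and 139151 with EC359. Both EC359 libraries were below both vehicle libraries, with means of 137283 ± 2642 against 154352 ± 4749 (SD, n = 2 each). The difference was 11.1% of the vehicle mean (log2 fold change -0.17, 95% interval -0.24 to -0.10). VIM did not pass in edgeR's quasi-likelihood test (adjusted p = 0.0135). It passed with DESeq2 (adjusted p = 0.000636), with edgeR's exact test (0.00071) and with limma voom (0.00575). The call also turned on the libraries. The quasi-likelihood adjusted p was 3.74e-05 without vehicle replicate 1 and 0.0011 without vehicle replicate 2, and it was 0.404 and 0.324 without EC359 replicates 1 and 2. VIM was lower in all of these fits.

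KRT18 and KRT8 encode the type I and type II keratins that pair in filaments of simple epithelia, and the genes lie head to head on chromosome 12 of GRCh37. KRT18 spans 53342655 to 53346690 on the plus strand, and KRT8 spans 53290971 to 53343738 on the minus strand, so the annotated gene spans overlap. The strand setting of the counting was not stated. KRT18 had 7006 and 7472 normalized counts with vehicle, and 7759 and 7655 with EC359. Both EC359 values lay above both vehicle values, but the difference did not pass (log2 fold change 0.090, 95% interval 0.0058 to 0.18, edgeR adjusted p = 0.204). KRT8 had 618 and 675 normalized counts with vehicle, and 681 and 669 with EC359. Its groups overlapped (log2 fold change 0.062, 95% interval -0.10 to 0.22, edgeR adjusted p = 0.674). Without vehicle replicate 1, the log2 fold change of KRT8 was -0.00036.

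The keratin pair was far from equal in counted reads. Within a library the raw KRT8 count was 0.0882 and 0.0904 of the KRT18 count with vehicle, and 0.0878 and 0.0873 with EC359. The other keratins placed this in context. Of 10 chosen type I keratins, KRT18 made up 94.6% to 95.6% of the summed CPM per kilobase. KRT8 made up 2.1% to 2.18% of 8 chosen type II keratins. The type II sum came mostly from KRT81, a hair keratin, with 371 to 421 CPM per kilobase, and from KRT7, a partner of simple epithelia, with 162 to 177. Of the exon windows, 42.7% of KRT81, 41.1% of KRT8 and 35% of KRT18 occur more than once in GRCh37, against 0.751% of KRT7. The levels of KRT81, KRT8 and KRT18 are therefore uncertain, and so are these shares. VIM per kilobase was 3.29 and 3.11 times the sum of these 18 keratins with vehicle, and 2.7 and 2.8 times with EC359. Reads with several alignments were left out, and 0% of the VIM windows recur, so the size of this ratio is uncertain.

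CDH1 encodes E-cadherin, the adhesion molecule of epithelial junctions, and lies on chromosome 16 of GRCh37 from 68771195 to 68869440 on the plus strand. It had 0 raw counts in both vehicle libraries, and 0 and 1 with EC359. This is 1 read among 112798721 gene counts (exact Poisson 95% interval 0.0253 to 5.57 reads, counting error only). A count of 0 allows up to 3 counts in a library. Of its exon windows, 0.397% occur more than once in GRCh37. CDH1 was too low to be tested, and a change with EC359 was not detectable at this depth.

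CDH2 encodes N-cadherin, the cadherin that mesenchymal cells carry in place of E-cadherin, on chromosome 18 of GRCh37 from 25512843 to 25757910 on the minus strand. Over the same 4 libraries it had 16712 raw counts. Normalized counts were 4131 and 4111 with vehicle, and 4276 and 4170 with EC359. The EC359 libraries were just above the vehicle libraries. The difference did not pass (log2 fold change 0.035, 95% interval -0.046 to 0.12, edgeR adjusted p = 0.627), and the interval covers both a fall and a rise.

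ZEB1 and ZEB2 encode zinc-finger repressors of epithelial genes. ZEB1, on chromosome 10 of GRCh37 from 31607424 to 31818742 on the plus strand, had 3864 and 3872 normalized counts with vehicle, and 3598 and 3458 with EC359. Both EC359 values were below the vehicle values (log2 fold change -0.13, 95% interval -0.22 to -0.046), and the gene did not pass in edgeR's quasi-likelihood test (adjusted p = 0.0817). It did not pass with DESeq2 (adjusted p = 0.183), edgeR's exact test (0.0465) or limma voom (0.0822) either. With each library's trend against GC content removed, ZEB1 passed (log2 fold change -0.17, edgeR adjusted p = 0.00221), as VIM did (log2 fold change -0.15, adjusted p = 1.23e-05). ZEB2, on chromosome 2 from 145121931 to 145278624 on the minus strand, had 2018 and 1943 normalized counts with vehicle, and 2058 and 1928 with EC359. Its groups overlapped (log2 fold change 0.0095, 95% interval -0.11 to 0.12, edgeR adjusted p = 0.944), and its sign turned with the setting.

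The precursor rows of miR-200a, miR-200b, miR-200c, miR-141, miR-429 and miR-205, whose seeds are printed above, were at 0 in all 4 libraries. They were looked up after the values of the members were known. Libraries of polyadenylated RNA do not measure mature microRNAs, so these rows say nothing of their level. ZEB1-AS1, the antisense neighbour of ZEB1, had 121 to 164 raw counts (log2 fold change 0.079, edgeR adjusted p = 0.783). Without a stated strand setting, its reads and those of ZEB1 cannot be told apart.

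SNAI1 and SNAI2 encode the zinc-finger repressors SNAIL and SLUG. SNAI1, on chromosome 20 of GRCh37 from 48599517 to 48605423 on the plus strand, had 36.7 normalized counts in each vehicle library, and 39.8 and 48.6 with EC359. The EC359 values were above, but counts this low leave a wide interval (log2 fold change 0.26, 95% interval -0.26 to 0.79, edgeR adjusted p = 0.563). SNAI2, on chromosome 8 from 49830157 to 49834299 on the minus strand, had 1867 and 1834 normalized counts with vehicle, and 1917 and 1923 with EC359. The EC359 libraries were again above the vehicle libraries, without passing (log2 fold change 0.053, 95% interval -0.051 to 0.16, edgeR adjusted p = 0.558).

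TWIST1 encodes a basic helix-loop-helix factor that induces CDH2 and represses CDH1, and lies on chromosome 7 of GRCh37 from 19060614 to 19157259 on the minus strand. It had 523 and 541 normalized counts with vehicle, and 510 and 522 with EC359. The EC359 libraries were below the vehicle libraries, with the nearest pair almost equal, and the difference did not pass (log2 fold change -0.044, 95% interval -0.21 to 0.12, edgeR adjusted p = 0.781).

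Ratios within a library do not depend on the scaling. The raw VIM count was 21.6 and 21.1 times that of KRT18 with vehicle, and 17.5 and 18.2 times with EC359. Against KRT8 it was 244 and 233 times with vehicle, and 199 and 208 times with EC359. Both vimentin-to-keratin ratios were therefore lower with EC359 in both libraries, by -0.26 and -0.23 on the log2 scale. ZEB1 was 1.91 and 1.99 times ZEB2 with vehicle, and 1.75 and 1.79 times with EC359 (log2 difference -0.14). SNAI2 was 50.9 and 49.9 times SNAI1 with vehicle, and 48.2 and 39.6 times with EC359 (log2 difference -0.21, which was -0.066 without EC359 replicate 2 and -0.35 without EC359 replicate 1). For KRT8 to KRT18 the log2 difference was -0.028, and it was -0.011 without vehicle replicate 2 and -0.046 without vehicle replicate 1. In each of the 5 ratios the groups did not overlap, which also held for 51.5% of single genes. The ratios are not independent, since VIM, KRT18 and KRT8 each enter 2 of them. With 2 libraries against 2, the two-sided exact permutation test cannot go below p = 0.33, and each ratio had that p.

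**Figure D3:**
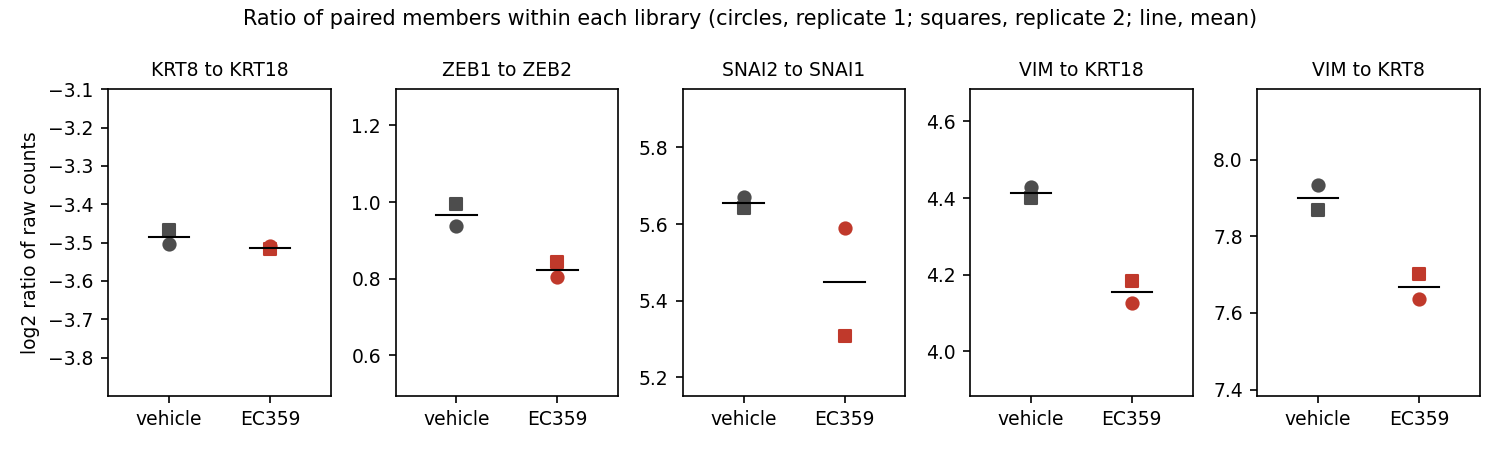
Log2 ratio of raw counts of paired members within each library, by treatment (grey vehicle, red EC359; circles replicate 1, squares replicate 2; lines are means). Each vertical axis spans the same number of log2 units around its own middle. The EC359 points lie below the vehicle points in all 5 panels, by 0.26 for VIM to KRT18 on average.

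Among genes of at least 100 normalized counts, the pattern over the 4 libraries was most like that of VIM for TALDO1, CD151 and UQCRH (Pearson r of 0.9999, 0.9998 and 0.9998 across the libraries). With 4 libraries such values are common, and 142 of 10514 genes had an r over 0.99 with VIM. For KRT18 the nearest were CHMP4B, RP9 and PLEKHM2, among 81 genes over 0.99, and for KRT8 they were UNC50, PCYT1A and PER1, among 38.

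Lists of related genes gave the setting of the members, with 190 genes in 10 lists. Of the 119 list genes tested, 2 were called, against 1.09% of all genes. Both stood in the list of 30 mesenchymal markers and were lower with EC359. Of the 139 genes called among all genes, 101 were lower and 38 higher. The counts at an unadjusted p under 0.05 given for each list stand beside 21.6% of all genes, 1356 higher and 1394 lower of 12706. LGALS1, which encodes galectin-1, had 11950 and 12239 normalized counts with vehicle and 9114 and 9211 with EC359 (log2 fold change -0.40, edgeR adjusted p = 0.000426). TNC, which encodes the matrix protein tenascin-C, had 8461 and 8575 with vehicle and 7256 and 7045 with EC359 (log2 fold change -0.25, edgeR adjusted p = 0.00371). DESeq2, the exact test and limma voom called both as well. The exact test also called a gene of this list in the other direction, ENG, which encodes the receptor endoglin and had 8035 and 8571 normalized counts with vehicle and 9281 and 9485 with EC359 (log2 fold change 0.18, edgeR quasi-likelihood adjusted p = 0.0295). ENG falls outside the rule for named genes and was chosen after its values were seen. For LGALS1 and TNC, neither was called without EC359 replicate 1 or without EC359 replicate 2. The rest of the list lay on both sides of 0. Of its 25 tested genes 16 were higher and 9 lower, 6 and 3 of them at an unadjusted p under 0.05, and the median log2 fold change was 0.046. FN1, the fibronectin gene, had a log2 fold change of -0.0065 (edgeR adjusted p = 0.923).

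The epithelial markers were nearly silent, as CDH1 was. Of 30 genes, 20 had fewer than 30 raw counts in every library and 3 were at 0 throughout. Of the 15 tested, 0 were called by edgeR's quasi-likelihood test, DESeq2, the exact test or limma voom, and 2 were higher and 0 lower at an unadjusted p under 0.05. Their median log2 fold change was 0.31, from counts that were mostly low. TJP1, a tight junction gene, was well above most of the list, with 2748 to 3575 raw counts (log2 fold change -0.044, edgeR adjusted p = 0.645). SPINT2, a protease inhibitor of epithelia, had only 12 and 14 raw counts with vehicle and 21 and 40 with EC359 (edgeR adjusted p = 0.219). Of 12 epithelial transcription and splicing factors, GRHL2, GRHL3, OVOL1 and OVOL2 were at 0 in all libraries. Of the 3 tested, FOXA1, FOXA2 and GRHL1, 0 were called by any of these tools and 0 had an unadjusted p under 0.05. FOXA2 was the most abundant, with 591 to 716 raw counts, and their median log2 fold change was -0.040.

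Most partners of the EMT factors were well counted, though 3 other EMT transcription factors had fewer than 30 raw counts in every library. Of 20 other EMT transcription factors 18 were tested, and 0 were called by the quasi-likelihood test, DESeq2, the exact test or limma voom. At an unadjusted p under 0.05, 3 were higher and 2 lower, and the median log2 fold change was 0.0052. HMGA2, a chromatin protein that induces SNAI1 and TWIST1 in other cells, had a log2 fold change of 0.12 (edgeR adjusted p = 0.0539), and TBX3, a repressor of CDH1, had -0.17 (adjusted p = 0.0787). HMGA1 (-0.073) and YBX1 (-0.039) had the highest levels of the list per kilobase. All 20 corepressors and turnover factors of ZEB and SNAIL were tested, and again 0 were called by these tools, with 1 higher and 1 lower at an unadjusted p under 0.05 and a median of 0.012. EZH2, the Polycomb methyltransferase, had a log2 fold change of 0.19 (edgeR adjusted p = 0.0641), and FBXO11, which targets SNAIL for degradation, had -0.11 (adjusted p = 0.204). The SNAIL corepressors HDAC1 (-0.054) and KDM1A (-0.047) had the highest levels of the list per kilobase.

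Of 23 other cadherin, catenin and adaptor genes 14 were tested, with 0 called by the quasi-likelihood test, DESeq2, the exact test or limma voom, 1 higher at an unadjusted p under 0.05 and a median log2 fold change of -0.030. CDH12, a neural cadherin, was that gene, with 31 and 37 raw counts with vehicle and 67 and 59 with EC359 (log2 fold change 0.60, edgeR adjusted p = 0.153). VCL, the vinculin gene, had a log2 fold change of -0.062, and CTNNAL1 had 0.025. Of 16 other keratins 7 were tested and 0 were called by the quasi-likelihood test, DESeq2 or limma voom, with 1 lower at an unadjusted p under 0.05 and a median of 0.054. KRT15, a keratin of basal epithelium, had 95 and 113 raw counts with vehicle and 78 and 81 with EC359 (log2 fold change -0.68, edgeR adjusted p = 0.0526), and the exact test called it. KRT7 (0.054), KRT81 (0.021) and KRT86 (0.51) did not pass.

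Of 19 other intermediate filament and linker genes 10 were tested, with 0 called by the quasi-likelihood test, DESeq2, the exact test or limma voom, 1 higher at an unadjusted p under 0.05 and a median log2 fold change of 0.069. That gene was INA, a neuronal filament gene, with a log2 fold change of 0.20 (edgeR adjusted p = 0.192). The linker DST (0.069) and the lamins LMNA (0.069) and LMNB2 (0.11) did not pass. Of 10 ovarian carcinoma markers 4 were tested, with 0 called by these tools, 1 higher at an unadjusted p under 0.05 and a median of 0.18. LGR5, a stem cell receptor, was that gene (log2 fold change 0.26, edgeR adjusted p = 0.0718), and PAX8 (0.32) and ARID1A (0.031) did not pass. Of 11 markers of other cell types 4 were tested, with 0 called by these tools, 0 at an unadjusted p under 0.05 and a median of -0.038. Their summed normalized counts were 19395 to 21569 with vehicle and 19318 to 19461 with EC359, most of it COL1A1 (log2 fold change -0.099). Their part in the values of the members was not tested.

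**Figure D4:**
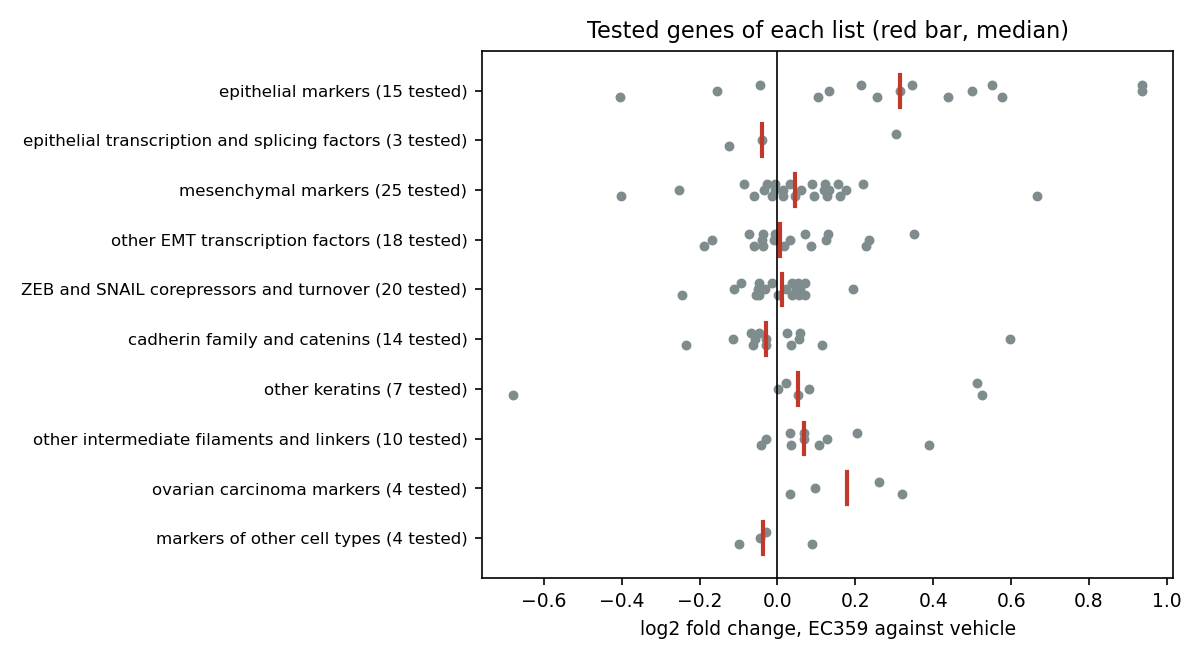
Log2 fold change of each tested gene in the 10 lists, EC359 against vehicle (grey points), with the median of each list as a red bar. The epithelial markers have a median of 0.31 from mostly low counts, and the other medians lie between -0.040 and 0.18. The points at -0.40 and -0.25 among the mesenchymal markers are LGALS1 and TNC.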

How the data were processed

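RNA sequencing was analysed from 4 libraries of ES2 cells, 2 with vehicle and 2 with EC359. The authors made TruSeq stranded mRNA libraries, read 50 bases from single ends, aligned them to hg19 with TopHat2 2.0.8b (CASAVA 1.8.2 is also named in the submitters' processing notes) and counted reads per RefSeq gene with HTSeq. What they deposited are raw counts of reads for each gene symbol. The strand setting is not given in the sources used here. The 5 summary rows entered neither the library sizes nor the tests. They held 10.9% to 12% of uniquely aligned reads on no gene and 0.852% to 0.879% that were ambiguous.

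Genes were kept with filterByExpr (minimum count 10, minimum total 15), scaled with TMM factors and tested without a block in edgeR 4.0.16 under R 4.3.3. Alternatives used DESeq2 1.42.0 and limma 3.58.1. Standard errors and intervals come from the same fit. Replicates differed by more than sampling noise (chi-square per degree of freedom 3.78 for vehicle and 2.69 for EC359) and were kept as separate replicates. Lengths, places and GC content came from GENCODE lifted to GRCh37, and 85.4% of tested genes had a GC value. Named genes were the members and, in each list, those called, the 2 with the lowest p and the 2 with the highest count per kilobase. FN1, CLDN3, CLDN4, CLDN7, EPCAM, ESRP1, KRT19, WT1 and the carcinoma, immune and liver markers at or near 0 were named besides. So were GRHL3, OVOL1, OVOL2, ACTA2, TAGLN and POSTN. They were named as marker checks or after their values were seen. Some list genes that fall under this rule are not reported here. The members and lists were chosen with earlier results of these data known.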

Additional observations from a re-analysis of the deposited data

How the results depend on the processing

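CDH1 had too few reads to be tested, and SNAI1 had the widest interval. The counts of calls depended strongly on the processing. For all genes, 139 were called, against 230 with DESeq2 (60 higher, 170 lower), 561 with the exact test (232 and 329), 61 with no filter (17 and 44, of 16620 tested), 549 at an adjusted p under 0.05 (213 and 336), 1255 at an unadjusted p under 0.01 (547 and 708) and 924 with the GC trend removed (325 and 599). The members called, 0 in the report, were 1 (VIM) with DESeq2, the exact test, limma voom and an adjusted p under 0.05, and 2 (VIM and ZEB1) at an unadjusted p under 0.01 and with the GC trend removed. The list genes called, 2 in the report, were 4 with the exact test and at an adjusted p under 0.05, 13 at an unadjusted p under 0.01 and 12 with the GC trend removed. Leaving out each library in turn gave 0 to 539 genes, 0 to 1 members and 0 to 6 list genes; without EC359 replicates 1 and 2 there were 0 and 2 genes, and without vehicle replicates 1 and 2 there were 390 and 539. In these fits the lone library is assumed to vary like the other group.

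The libraries share replicate numbers, but neither labels nor methods tie a number to a batch, and the deviations of the replicates numbered 1 from their group means had a correlation of only 0.0987 across genes. With a replicate block, 1539 genes were called (692 higher, 847 lower), 2 members (VIM and ZEB1) and 18 list genes. With the replicate block and the GC trend removed there were 1951 genes (749 and 1202), 3 members, with KRT18 higher, and 21 list genes.

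The log2 fold change of VIM ran from -0.20 to -0.14 over 15 alternatives and was called in 8, and that of ZEB1 ran from -0.17 to -0.10 and was called in 3. ZEB2 turned to -0.023 with the GC trend removed, with or without the replicate block, and ran from -0.039 to 0.056 when each library was left out, below 0 without vehicle replicate 2 (-0.023) and without EC359 replicate 1 (-0.039). KRT8 ran from -0.00036, without vehicle replicate 1, to 0.12, without vehicle replicate 2. CDH2, SNAI1, SNAI2, TWIST1, KRT18, VIM and ZEB1 kept their sign in all 15, but leaving out 1 library moved several values by over 1.5 times. SNAI1 was 0.12 without EC359 replicate 2 and 0.40 without EC359 replicate 1. KRT18 was 0.046 without vehicle replicate 1. CDH2 was 0.017 without EC359 replicate 1 and 0.053 without EC359 replicate 2. SNAI2 was 0.034 without vehicle replicate 2. TWIST1 was -0.026 without vehicle replicate 2, -0.028 without EC359 replicate 1 and -0.067 without vehicle replicate 1. None of these passed. The log2 differences of the 5 ratios stayed below 0 without each library in turn. Per kilobase of unique sequence, an alternative chosen after seeing the data, KRT8 moved from rank 6 to rank 5. The cause of these changes was not tested.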

Other observations

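Genes that mark other cell types differed widely in level within a type. CDH5, the endothelial VE-cadherin gene, had 3118 and 3329 raw counts with vehicle and 3920 and 3805 with EC359, while the endothelial genes PECAM1 and VWF had at most 2 reads in any library and KDR had 26 to 43. In CPM per kilobase of transcript, CDH5 stood at 30.3 to 32.4, beside 36.3 to 37.7 for CDH2. COL1A1 had 11994 to 14964 raw counts, while DCN, another fibroblast gene, had at most 3. CD68 had 2296 to 2914 raw counts, with PTPRC at 1 read in all. JUP, which encodes the junction protein plakoglobin, had at most 4 reads in any library, while CTNNB1, which encodes the related beta-catenin, had 10131 to 12336. CTNND1 had 73 to 92 raw counts and overlaps the readthrough gene TMX2-CTNND1, whose row was at 0, so its level is uncertain. These genes were picked after their values were seen.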
